A study of Mus musculus with 7 samples.

Results

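Proteasome genes were followed in cells from mouse spleen that had been enriched for natural killer (NK) cells and cultured with or without interleukin 2. The set comprised every gene whose platform symbol was Psma, Psmb, Psmc, Psmd, Psmf or Psmg followed by a digit, without the interferon-inducible Psmb8, Psmb9 and Psmb10 and without pseudogene symbols. It held 42 of the 19752 genes with a probe of their own, read by 48 probes. Of the 42, 39 encode subunits, assembly factors or regulators of the proteasome found in all cells. The other three match the symbol rule only. Psma8 encodes a testis form of an alpha subunit, Psmb11 a beta subunit of the thymic cortex, and Psmc3ip a meiotic recombination factor that takes its name from binding a proteasome ATPase.

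The proteasome is the protease that degrades ubiquitin-tagged proteins. Its barrel-shaped core particle is built from rings of alpha subunits, which gate the entrance, around rings of beta subunits, of which Psmb5, Psmb6 and Psmb7 carry the active sites. A cap of ATPases and non-ATPase subunits binds the tagged protein, removes the ubiquitin and unfolds the chain into the core, and dedicated chaperones assemble the particle. In lymphocytes and interferon-treated cells the active subunits can be replaced by Psmb8, Psmb9 and Psmb10, which gives the immunoproteasome and alters the peptides presented on MHC class I.

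The IL2 group held 4 arrays (replicates 1 to 4) of cells given interleukin 2 at 250 U/ml for 8 h, and the untreated group held 3 arrays (replicates 2 to 4) of cells kept without cytokine. The donors were male C57BL/6 mice aged 6 weeks. EasySep negative selection, which removes other cell types and leaves the NK cells untouched, gave the cells, and the labels name NK1.1 as their marker. The 8 h is given by the sample characteristics of every array, but only the titles of replicates 3 and 4 state it. Values are log2 intensities from Affymetrix Mouse Gene 1.0 ST arrays, 1 probe (transcript cluster) per gene, and the levels of different genes are not comparable on this scale. Whether the replicates are separate mice or separate cultures is not in the labels, and p-values therefore measure only the spread among these 7 arrays, which may be technical.

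Some features of the arrays touch every result below. The upper quartile of intensity was 291, 318, 342 and 350 in IL2 replicates 1 to 4, against 318, 278 and 318 in untreated replicates 2 to 4. The 10 NK cell markers include the cytotoxic effector genes Prf1, Gzma and Fasl. The mean log2 intensity of the 10 spanned 10.05 to 10.36 over the IL2 arrays, against 8.46 to 9.16 over the untreated arrays. At a limma adjusted p under 0.05, 5 of the 10 were higher with IL2 (Ncr1, Klrb1c, Itga2, Prf1 and Fasl). Klra8, Eomes, Gzma, Klrk1 and Cd160 were not called. Of 9 measured monocyte and macrophage markers 6 were lower, with means of 7.76 to 8.35 in IL2 arrays, against 9.36 to 9.84 in untreated arrays. Of 7 B cell markers 1 was lower (9.89 to 10.05 with IL2, against 10.25 to 10.53 untreated), and of 6 neutrophil markers 1 was lower (7.85 to 8.10 with IL2, against 8.67 to 9.32 untreated). In both lists 0 markers had a positive difference. An unadjusted p under 0.05 was found for 4 B cell and 3 neutrophil markers, against 13.5% of all genes. T cell markers (8 measured) and dendritic cell markers (6 measured) had 0 calls by limma, with 0 and 3 at an unadjusted p under 0.05. The T cell markers averaged 6.87, 6.87, 7.72 and 7.61 in IL2 replicates 1 to 4, against 6.99, 7.43 and 7.71 in untreated replicates 2 to 4. Cd79a, a B cell marker, had a log2 intensity of 11.92 ± 0.08 with IL2 (SD, n = 4) and 12.05 ± 0.15 untreated (n = 3), so the arrays also read other cells. A change in the number of cells of a type and a change in RNA per cell, up or down, cannot be told apart in such samples. The part of these markers and intensities in the proteasome values was not tested.

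Most proteasome genes had small positive differences with IL2 that did not pass the test, and 1 gene did. Psmg2, which encodes an assembly chaperone of the core particle, was the only one of the 42 called higher by limma over all 7 arrays, and 0 were called lower. Over all genes 2.08% were called higher and 0.901% lower, so the share of members called, 1 of 42, was close to the background. At an unadjusted p under 0.05, 16 of the 42 passed, against 13.5% of all genes. A log2 fold change above 0 was found for 38 of the 42 members, against 45.5% of all genes, and for 37 after quantile normalization again and 40 with arrays centred on their median. The median log2 fold change was 0.30 over the members, with a range of -0.09 to 0.74, and -0.01 over all genes. Because 38 members lay at or above the median signal, the same was counted among the genes at or above it. There 37 of 38 members had a positive difference, against 58.2% of genes, and 2 (Psmg2 and Psmb2) were called higher, against 5.85% of genes.

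**Figure D1:**
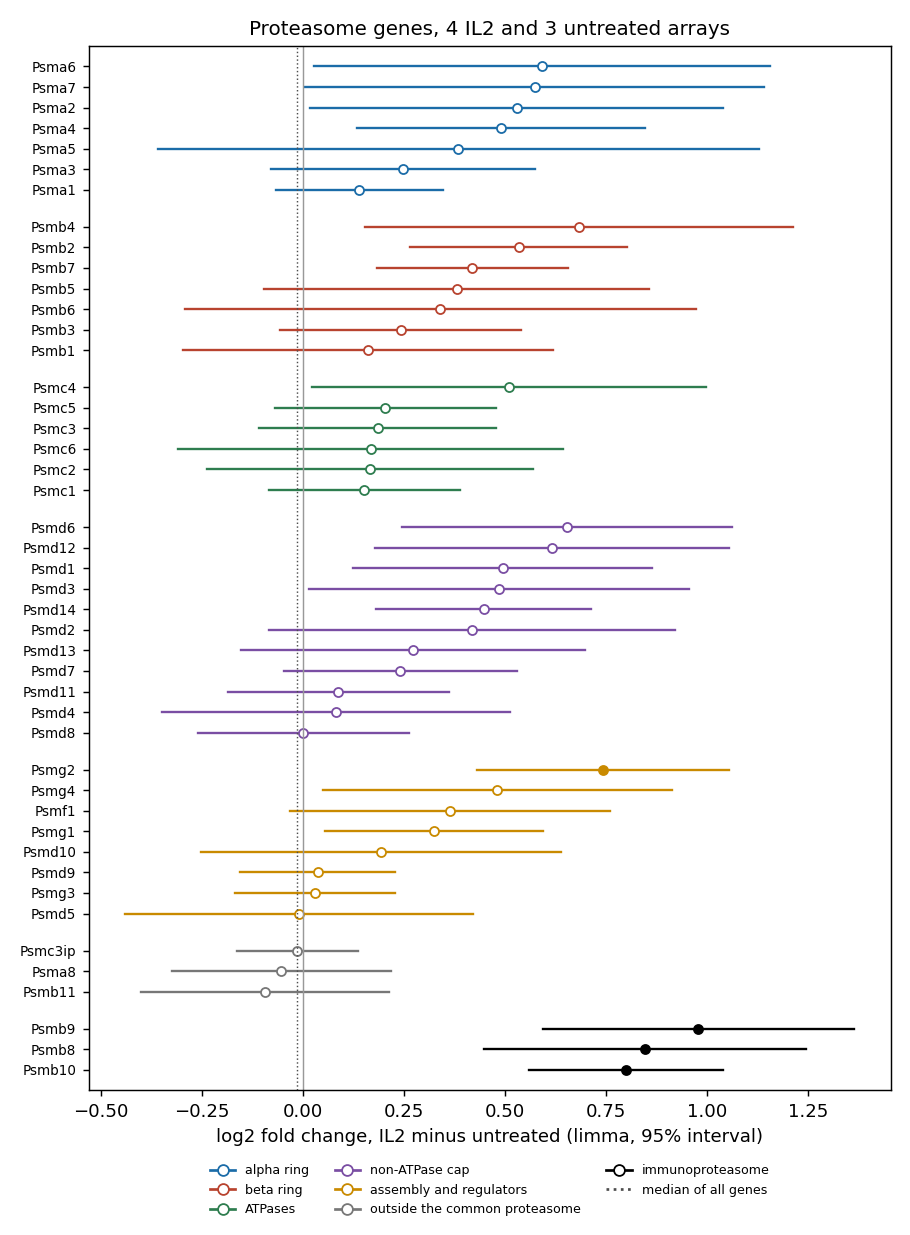
Log2 fold change (IL2 minus untreated, x axis) of the 42 genes and of Psmb8, Psmb9 and Psmb10, with limma's 95% intervals, grouped by role (y axis, colours). Filled points passed the adjusted p threshold of 0.05. Of the 42 only Psmg2 is filled, and the dotted line at -0.01 is the median of all genes.

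The arrays did not behave alike within the IL2 group. After centring each gene on its mean over the 7 arrays, the median over the 42 genes was -0.14, 0.06, 0.28 and 0.34 in IL2 replicates 1 to 4, against -0.05, -0.29 and -0.13 in untreated replicates 2 to 4. IL2 replicate 1 therefore lay within the untreated range, while IL2 replicates 3 and 4 lay above every other array. IL2 replicate 1 had the lowest value of the IL2 arrays, ties included, for 39 of the 42 genes, against 44.0% of all genes. IL2 replicates 3 and 4 both exceeded every untreated array for 35 of the 42, against 22.2% of all genes. For 7 of the 42 genes all 4 IL2 arrays lay above all untreated arrays, against 6.25% of all genes, and for none did all lie below. Those with the groups apart were Psma4, Psmb2, Psmb7, Psmd1, Psmd14, Psmg1 and Psmg2. The order of the 7 arrays by this median was that of their upper quartile of intensity, except that untreated replicates 2 and 4, with 318 each, changed places. Without IL2 replicate 1 the median over the members was 0.38 and 3 of the 42 were called higher (Psmg2, Psmb2 and Psmb7), against 2.62% of all genes.

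**Figure D2:**
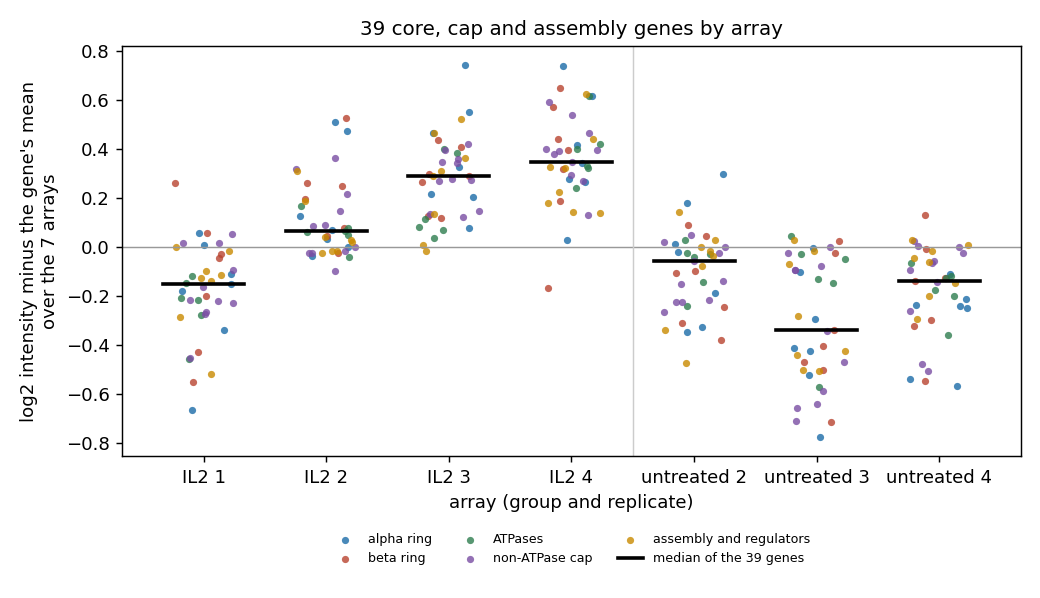
Log2 intensity minus the gene's mean over the 7 arrays (y axis) for the 39 core, cap and assembly genes in each array (x axis), coloured by role, with the median of the 39 genes as a black bar. The bars of IL2 replicates 3 and 4 stand highest, and that of IL2 replicate 1 lies among the untreated arrays.

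Within the core particle, the alpha ring genes had a median difference of 0.49, and 0 of 7 passed limma's adjusted test. At an unadjusted p under 0.05, 4 of the 7 passed, against 13.5% of all genes. All 7 differences were positive, against 45.5% of all genes. The largest was in Psma6, with log2 intensities of 10.07, 10.48, 10.23 and 10.28 in IL2 replicates 1 to 4, against 10.31, 9.24 and 9.47 in untreated replicates 2 to 4. Untreated replicate 2 was as high as the IL2 arrays, so the groups overlapped, and the log2 fold change was 0.59 (SE 0.24, limma adjusted p = 0.342). Psma1 had the smallest difference, at 10.12, 10.24, 10.20 and 10.14 with IL2, against 10.13, 10.11 and 9.87 untreated, or 0.14 (SE 0.09). Its IL2 arrays lay close together, and untreated replicate 4 was the lowest of all. Psma4 was the alpha gene with the groups apart (0.49, SE 0.15, limma adjusted p = 0.19). Psma7 and Psma2 had differences of 0.57 and 0.53, Psma5 of 0.38 and Psma3 of 0.25. Psma3 was read by 3 probes with differences of 0.25 to 0.29, and the second probe of Psma5 gave 0.29. Without IL2 replicate 1 the median of the ring was 0.65, with 0 of 7 called by limma and 6 at an unadjusted p under 0.05, against 16.3% of all genes at that level.

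The beta ring, which holds the proteolytic sites, had a median difference of 0.38, with 0 of 7 genes called by limma. Of the 7, 3 had an unadjusted p under 0.05, against 13.5% of all genes. Psmb5, the chymotrypsin-like subunit, had log2 intensities of 11.10, 11.27, 11.73 and 11.74 in IL2 replicates 1 to 4, against 10.92, 10.89 and 11.43 in untreated replicates 2 to 4. IL2 replicates 1 and 2 fell below untreated replicate 4, and the difference was 0.38 (SE 0.21, limma adjusted p = 0.515). Psmb6, the caspase-like subunit, had 8.43, 9.06, 9.39 and 9.63 with IL2, against 8.88, 8.51 and 8.97 untreated. IL2 replicate 1 was the lowest of all 7 arrays for this gene, and the difference was 0.34 (SE 0.27). Psmb7, the trypsin-like subunit, had 8.97, 9.26, 9.29 and 9.18 with IL2, against 8.75, 8.66 and 8.86 untreated, a difference of 0.42 (SE 0.10, limma adjusted p = 0.0896). The groups of Psmb7 did not overlap, and its 95% interval was 0.18 to 0.66.

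Among the beta subunits without an active site, Psmb4 had the largest difference and Psmb1 the smallest. Psmb4 had log2 intensities of 9.72, 10.29, 9.88 and 10.33 with IL2, against 9.85, 9.05 and 9.22 untreated, a difference of 0.68 (SE 0.23, limma adjusted p = 0.221). Untreated replicate 2 exceeded IL2 replicate 1. Psmb1 had 8.49, 8.96, 9.18 and 9.31 with IL2, against 8.96, 8.89 and 8.62 untreated, or 0.16 (SE 0.20), and IL2 replicate 1 was the lowest array. Psmb2 was the closest to the threshold of the uncalled members, with 10.83, 11.02, 11.06 and 11.09 in IL2 arrays, against 10.67, 10.27 and 10.45 in untreated arrays (0.53, SE 0.12, limma adjusted p = 0.0583). Every IL2 array of Psmb2 lay above the untreated ones. Psmb3 had a difference of 0.24 on the brighter of its 2 probes and 0.47 on the other, and on the brighter IL2 replicate 4 was the lowest IL2 array.

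**Figure D3:**
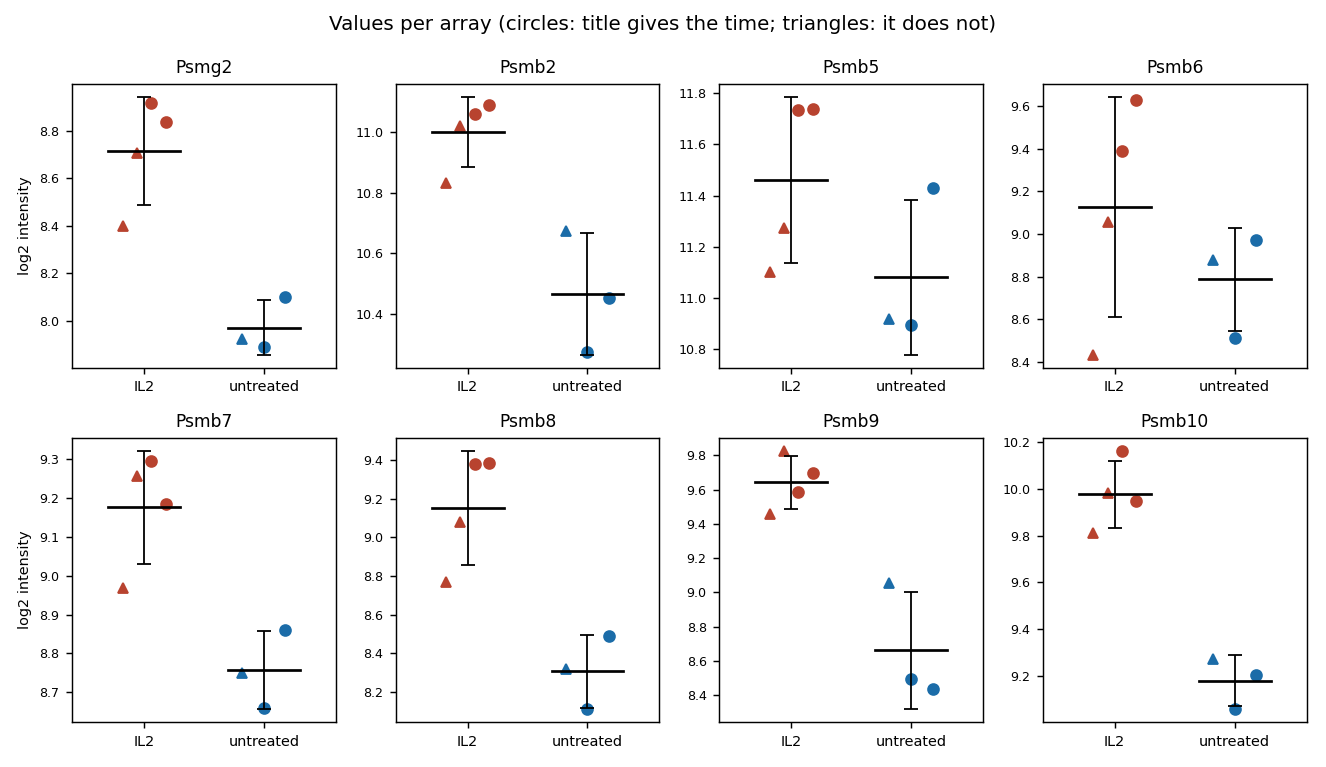
Log2 intensity (y axis) of 8 genes in the 4 IL2 arrays and the 3 untreated arrays (x axis), with the mean and SD as black lines. Circles are arrays whose titles give the time (replicates 3 and 4) and triangles the others. Psmg2, Psmb2, Psmb7 and the inducible Psmb8, Psmb9 and Psmb10 have the groups apart, and Psmb5 and Psmb6 overlap.

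Of the cap's 6 ATPase genes, whose products form the ring that unfolds substrates, 0 were called by limma. An unadjusted p under 0.05 was found for 1 of the 6, against 13.5% of all genes. The median difference was 0.18. Psmc4 had the largest, with log2 intensities of 8.99, 9.28, 9.60 and 9.81 in IL2 replicates 1 to 4, against 8.96, 8.63 and 9.13 in untreated replicates 2 to 4 (0.51, SE 0.21, limma adjusted p = 0.344). IL2 replicate 1 lay below untreated replicate 4. Psmc1 had the smallest, at 8.66, 8.85, 8.85 and 9.02 with IL2, against 8.75, 8.75 and 8.58 untreated (0.15, SE 0.10). Its second probe gave 0.24. Psmc2, Psmc3, Psmc5 and Psmc6 had differences of 0.17 to 0.20, and the groups overlapped for all 6 ATPase genes. Without IL2 replicate 1 the median was 0.28, with 0 called by limma. There 4 of 6 had an unadjusted p under 0.05, against 16.3% of all genes.

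The non-ATPase subunits of the cap, which recognise ubiquitin and form its scaffold and lid, had 0 of 11 genes called by limma. At an unadjusted p under 0.05, 5 of the 11 passed, against 13.5% of all genes. The median difference was 0.42. Psmd6, a lid subunit, had the largest, with log2 intensities of 8.65, 8.99, 8.91 and 9.10 with IL2, against 8.65, 7.99 and 8.13 untreated (0.65, SE 0.18, limma adjusted p = 0.122). Untreated replicate 2 was level with IL2 replicate 1, and the other two untreated arrays were lower. Psmd8, also of the lid, had the smallest, at 9.38, 9.66, 9.80 and 9.78 with IL2, against 9.66 in each untreated array. The value was the same on 4 arrays, IL2 replicate 2 and the untreated ones, and the difference was 0.00 (SE 0.11). Psmd14, the deubiquitinase that removes the ubiquitin chain, had the groups apart with a difference of 0.45 (SE 0.12, limma adjusted p = 0.107), as did the scaffold subunit Psmd1 with 0.49 (SE 0.16). Psmd2, the other large scaffold subunit, had 0.42, and 0.35 on its second probe. Among the other lid genes Psmd12 had 0.62, Psmd3 0.48, Psmd13 0.27, Psmd7 0.24 and Psmd11 0.09. The ubiquitin receptor Psmd4 had 0.08.

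The assembly and regulator genes held the call of Psmg2 and the lowest log2 fold change of the 39 genes. Psmg2 had log2 intensities of 8.40, 8.71, 8.92 and 8.84 in IL2 replicates 1 to 4, against 7.92, 7.89 and 8.10 in untreated replicates 2 to 4. All IL2 arrays were above all untreated ones, with a gap that IL2 replicate 1 bounded. Means were 8.71 ± 0.23 (SD, n = 4) with IL2 and 7.97 ± 0.11 (n = 3) untreated, so that Psmg2 rose 1.67-fold (log2 fold change 0.74, SE 0.13, limma adjusted p = 0.0306). The call was kept when IL2 replicate 1 was left out (0.85, limma adjusted p = 0.00962). Each of the other 6 omissions ended it, at log2 fold changes of 0.68 to 0.81 and limma adjusted p-values of 0.0868 to 0.119. Psmg1, which pairs with Psmg2 in the chaperone that starts the alpha ring, had a difference of 0.32 (SE 0.12, limma adjusted p = 0.26) with the groups apart. In the second chaperone pair, Psmg4 had 0.48 and Psmg3 0.03. The untreated arrays of Psmg3 all read 6.76, and it was the only one of the 39 below the median signal. Psmd5, Psmd9 and Psmd10, chaperones of the cap's base, had -0.01, 0.04 and 0.19. Psmd5 had 7.68, 8.24, 8.33 and 8.52 with IL2, against 8.23, 8.23 and 8.15 untreated, and IL2 replicate 1 was far below the rest. Psmf1, a proteasome inhibitor that also acts in its assembly and transport, had 0.36. The median over the 8 genes was 0.26.

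Psma8, Psmb11 and Psmc3ip, whose known sites of use lie outside the spleen, served as a contrast by name only. Psma8 had log2 intensities of 5.71, 5.32, 5.35 and 5.59 with IL2, against 5.48, 5.49 and 5.65 untreated (-0.05, SE 0.12). Psmb11 had 6.90, 6.74, 6.67 and 6.45 with IL2, against 6.62, 6.74 and 6.99 untreated (-0.09, SE 0.13). Psmc3ip read 6.40 on every array but untreated replicate 3, at 6.44. For all 3 the groups overlapped, the signal was below the median of all genes, and limma's test was not passed. Identical values on at least 2 arrays occurred for 12 of the 42 members, against 54.3% of all genes.

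The same difference was taken within each title style. Among the arrays whose titles give the time (IL2 and untreated replicates 3 and 4), the median over the 42 genes was 0.52, 39 were positive, against 46.9% of all genes, and 27 had an unadjusted p under 0.05, against 21.4% of all genes. Limma called 0 of the 42 higher in these 4 arrays, against 0.41% of all genes. Among the others (IL2 replicates 1 and 2, and untreated replicate 2) the median was 0.016. There 24 of the 42 counted as positive, against 57.2% of all genes. Those 24 include Psmc3ip, which read the same on these arrays and had no difference beyond rounding in the computation. Ties of this kind may also enter the share of all genes. With a single untreated array that comparison called 0 of all 19752 genes, and its p-values are not used for the members. Over all genes the medians were -0.016 and 0.016 in these sets. Psmg2 had 0.88 and 0.63 in the arrays with and without the time. Psma6 had 0.90 and -0.03, Psmb6 had 0.77 and -0.13, and Psma5 had 0.84 and -0.0037. Psmb3 ran the other way, at 0.03 and 0.54. The alpha ring had medians of 0.82 and 0.00089, the beta ring 0.57 and 0.25, the ATPases 0.40 and -0.01, the non-ATPase cap genes 0.56 and 0.13, and the assembly and regulator genes 0.49 and -0.04. The difference between the title styles was not tested.

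**Figure D4:**
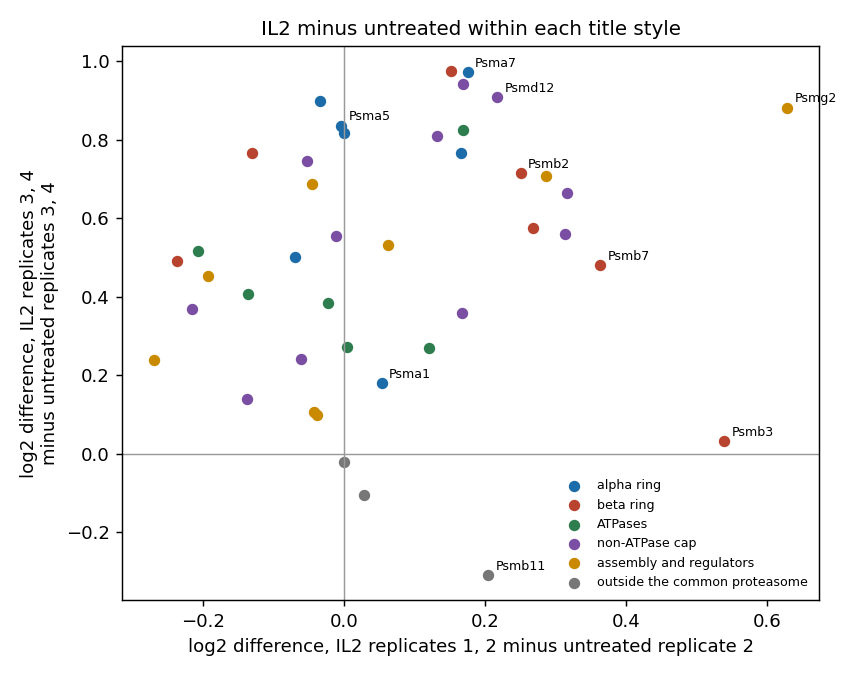
Log2 difference of each of the 42 genes within the arrays whose titles give the time (y axis, IL2 minus untreated, replicates 3 and 4) against that within the other arrays (x axis, IL2 replicates 1 and 2 minus untreated replicate 2), coloured by role. Nearly all points lie above 0 on the y axis (39 of 42), while on the x axis they scatter around 0, with Psmg2 and Psmb3 farthest right. On the x axis 24 of 42 counted as above 0, among them Psmc3ip, which differs from 0 only by rounding.

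The inducible counterparts had larger differences. Psmb8, Psmb9 and Psmb10, which replace Psmb5, Psmb6 and Psmb7, were higher with IL2 by 0.85 (SE 0.17, limma adjusted p = 0.0454), 0.98 (SE 0.17, limma adjusted p = 0.0231) and 0.80 (SE 0.10, limma adjusted p = 0.0083). With them Psme1 (0.83) and Psme3 (0.76), subunits of proteasome activators, passed the test, while Psme2 (0.83) and Psme4 (0.15) did not. This makes 5 of 7 genes called higher, against 2.08% of all genes. Without IL2 replicate 1 this count was 6, and 517 of all 19752 genes were called higher. Without untreated replicate 2 it was 3, with 423 of all genes. Without any other single array it was 1, with 134 to 178 of all genes, so calls fell over the whole array there. Partner genes were compared through the log2 difference of inducible minus constitutive subunit within each array. Its size and sign within an array carry no meaning, because probes are not comparable, and it is read between the groups only. Psmb8 minus Psmb5 was -2.33, -2.20, -2.35 and -2.36 in IL2 replicates 1 to 4, against -2.60, -2.78 and -2.94 in untreated replicates 2 to 4. Psmb10 minus Psmb7 was 0.84, 0.72, 0.87 and 0.77 in IL2 arrays, against 0.52, 0.40 and 0.34 in untreated arrays. For these pairs every IL2 array lay above every untreated array, by 0.47 and 0.38 on average. An exact permutation test over the arrays, made two-sided by doubling the smaller tail, gave p = 0.0571 for each. With 4 and 3 arrays that is the smallest p this doubled test allows. Adjusted over the 3 pairs, the permutation test gave p = 0.0857 for each. Psmb9 minus Psmb6 was 1.03, 0.77, 0.20 and 0.07 with IL2, against 0.18, -0.02 and -0.54 untreated, a difference of 0.64 (exact permutation p = 0.114). There the groups overlapped, with IL2 replicates 1 and 2 highest. All 3 differences were positive with each array left out and within each title style.

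**Figure D5:**
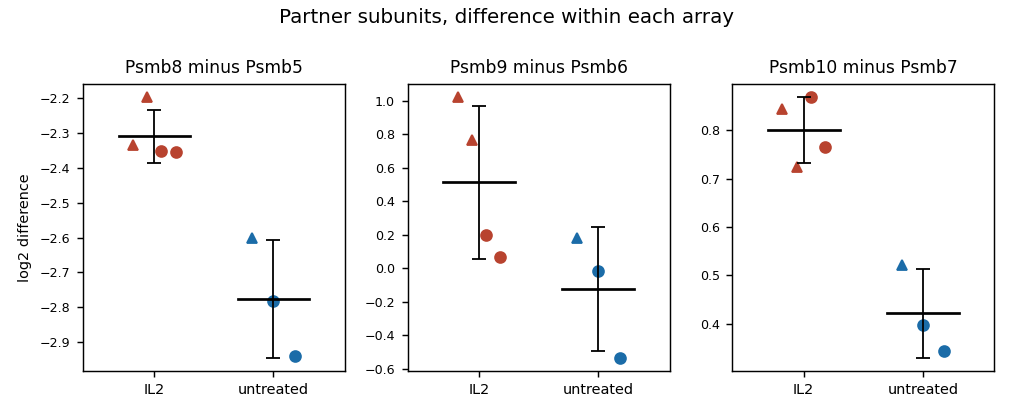
Log2 difference of inducible minus constitutive subunit (y axis) in each of the 4 IL2 and 3 untreated arrays (x axis), with means and SD as black lines, and circles and triangles for titles with and without the time. The IL2 arrays stand above the untreated ones for the pairs of Psmb8 and Psmb10 and overlap for that of Psmb9.

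Genes that work with the proteasome were counted from lists drawn up by function. Of 11 measured partners and assembly helpers 1 passed the test, Pomp, the maturation factor that guides insertion of the beta subunits. Pomp had log2 intensities of 8.87, 9.05, 9.24 and 9.24 in IL2 arrays, against 8.37, 8.46 and 8.58 in untreated arrays, and rose by 0.63 (SE 0.11, limma adjusted p = 0.0313). The call of Pomp held without IL2 replicate 1 or untreated replicate 2 and was lost without any other single array. The list had a median of 0.35 with 9 of 11 positive, against 45.5% of all genes, while 2.08% of all genes were called higher. Of 15 measured regulators of proteasome genes 1 passed, Myc (2.14, SE 0.19). Nfe2l1, the factor known to raise proteasome genes when the protease is inhibited, had 0.22 (SE 0.12), and its relative Nfe2l2 had -0.37 (SE 0.16), and neither passed. Of 16 listed genes of ubiquitin supply and delivery only 8 were measured, so this list was read in part. Of these 8 measured genes 0 passed limma's adjusted test. An unadjusted p under 0.05 was found for 2 of the 8, against 13.5% of all genes. Ubqln4, a shuttle that brings tagged proteins to the proteasome, had the largest difference of the 8 (0.48, SE 0.22).

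Promoter sequences were compared because most members had a log2 fold change above 0. RefSeq windows on GRCm38.p6, from 250 bases before to 50 after the start, were matched for 34 of the 42 genes (36 windows). These motifs were searched on both strands: the antioxidant response element core bound by NRF1 and NRF2 (TGACNNNGC), the CCAAT box, the E-box CACGTG and the ETS core CCGGAAG. The ETS core was in 14 of 36 member windows, or 38.9%, against 8.86% of the 32851 windows of all genes. The antioxidant core was in 5 of the 36 (13.9%, against 12.4%), the CCAAT box in 13 (36.1%, against 37.4%) and the E-box in 2 (5.56%, against 7.15%). These shares are descriptions without a test, and 0 matches of different motifs overlapped in the member windows. The windows of all genes were not limited to genes of like signal, so whether the ETS share is particular to the members was not tested. The median log2 fold change was 0.17 over the 13 genes with an ETS core and 0.36 over the other matched genes.

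Psmd12 and Psmc6 were the 2 members with both the ETS and the antioxidant core, and are shown whole with both in capitals (either strand). Their log2 fold changes were 0.62 and 0.17. In Psmd12 the ETS core began at position -17 from the start and in Psmc6 at -100, and the antioxidant cores at -247 and -227.
Psmd12 (chr11:107479278-107479577, + strand): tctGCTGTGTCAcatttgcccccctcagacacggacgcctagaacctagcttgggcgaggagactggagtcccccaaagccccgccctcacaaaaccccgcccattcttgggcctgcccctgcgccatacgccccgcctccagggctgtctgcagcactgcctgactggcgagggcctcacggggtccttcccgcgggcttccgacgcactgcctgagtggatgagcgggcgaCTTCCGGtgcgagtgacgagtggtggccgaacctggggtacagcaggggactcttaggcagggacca
Psmc6 (chr14:45329574-45329873, + strand): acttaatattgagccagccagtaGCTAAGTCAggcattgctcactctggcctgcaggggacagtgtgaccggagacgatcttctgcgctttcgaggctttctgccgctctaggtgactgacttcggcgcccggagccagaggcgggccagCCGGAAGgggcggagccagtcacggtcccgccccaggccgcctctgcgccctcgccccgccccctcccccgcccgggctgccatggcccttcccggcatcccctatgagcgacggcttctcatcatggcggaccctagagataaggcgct

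Shorter stretches show the ETS core, in capitals, in Psmd6 (0.65), Psma6 (0.59) and Psmd2 (0.42). These 3 genes were picked for the size of their differences and, with Psmd12, have the highest of the 13 genes with the core, while the other genes with it run from -0.01 (Psmc3ip) to 0.32 (Psmg1). The match began at -45, -132 and -26 from the start.
Psmd6 (chr14:14120959-14121015, - strand): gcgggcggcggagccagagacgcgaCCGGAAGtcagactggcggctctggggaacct
Psma6 (chr12:55398668-55398724, + strand): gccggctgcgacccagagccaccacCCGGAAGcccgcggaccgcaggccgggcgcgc
Psmd2 (chr16:20651601-20651657, + strand): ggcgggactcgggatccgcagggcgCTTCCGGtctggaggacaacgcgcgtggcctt

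Of the active-site subunits, Psmb5 and Psmb6 held the antioxidant core, in capitals, at -47 and -9 from the start.
Psmb5 (chr14:54618009-54618067, - strand): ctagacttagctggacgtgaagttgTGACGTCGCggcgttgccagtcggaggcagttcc
Psmb6 (chr11:70525323-70525381, + strand): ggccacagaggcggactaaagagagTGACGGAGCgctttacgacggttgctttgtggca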

How the data were processed

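Per the labels, RNA extracted with TriZol was amplified with the Ambion WT Expression kit, labelled with biotin and hybridised to 7 arrays. The deposited values are linear-scale intensities of transcript clusters. RMA and Affymetrix Power Tools are named in the submitters' processing notes, and every title marks its array as reanalyzed. Which arrays were normalized together, the versions, the settings and the genome build are not given in the sources used here. Deposited intensities were converted to log2 with no offset. Of 24922 probes, 21425 had 1 gene symbol in the platform annotation and were used, and the brightest probe by mean over the arrays was kept per gene. All 19752 genes were tested, dim ones included. Cross-hybridisation with pseudogenes or related genes, which could touch the genes with several probes, cannot be judged from these values.

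Groups came from the sample labels. All genes were fitted in limma 3.58.1 (R 4.3.3) with IL2 or untreated as 1 factor and eBayes (7.68 degrees of freedom in total). Benjamini-Hochberg adjusted p-values were taken over the 19752 genes with a threshold of 0.05. A gene past it is termed called, log2 fold changes are IL2 minus untreated, the SE uses the moderated variance, and ± marks an SD across arrays. The number of arrays limits the precision. The fit was checked on simulated data with independent noise per gene and planted changes larger than any of the members'. That check does not cover differences of the members' size or shifts that many genes share on an array. The members, lists, tests and alternatives were chosen with earlier results of these data known. Values on every array are given for Psmb5, Psmb6 and Psmb7, for the highest and lowest log2 fold change in each role group, and for Psma8, Psmb11 and Psmc3ip. Psmb2 and Pomp are also given so, chosen after their values were seen. Called members of the related lists are named, or that with the largest difference. Others of these lists, and the groups-apart genes, were named after their values were seen. Alternatives were the replicate number or title style as a block, quantile normalization again or median centring over all probes, array quality weights (statmod 1.5.0), a trended and robust eBayes, averaging a gene's probes, a filter on signal, and subsets of arrays. Some list members were not analysed here.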

Additional observations from a re-analysis of the deposited data

How the results depend on the processing

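The count of members called higher, 1 over all 7 arrays, became 2 when replicate number entered as a block, the replicate block (Psmg2 and Psmd12), 2 with dim genes left out (Psmg2 and Psmb2), and 4 after quantile normalization again (Psmg2, Psmb2, Psmd6 and Psmd12) or with array quality weights (Psmg2, Psmb2, Psmb7 and Psmd6). The count over all genes moved too, being 410 over all 7 arrays, 554 with the replicate block, 694 after quantile normalization again and 553 with weights. No untreated array was numbered 1, so IL2 replicate 1 stood alone in its block and did not enter the log2 fold changes of the replicate block. Their median over the members was 0.38 there, the same as without IL2 replicate 1. Of the members 0 were called higher in the timed-title arrays (replicates 3 and 4), where 81 of all genes were called higher. Also 0 were called in the untimed ones, where the single untreated array gave 0 calls over all genes, so that count says nothing about the members. The count of members was 0 to 3 with each array left out. It was 3 without IL2 replicate 1 (Psmg2, Psmb2 and Psmb7), where 517 of all genes were called higher. It was also 3 without untreated replicate 2 (Psma6, Psmb2 and Psmd6), where 423 of all genes were. It was 0 without any other array, where 134 to 178 of all genes were called higher. It remained 1 (Psmg2) with title style as a block, median centring, trend and robust, and the mean of all probes. The count of members called lower was 0 under every alternative run. Their median log2 fold change, 0.30, was 0.52 in the timed-title arrays and 0.016 in the untimed ones. It was 0.21 after quantile normalization again and 0.21 to 0.38 with each array left out, positive each time. Of the 42 genes, 20 were counted with the other sign in the untimed arrays, and 0 to 4 under each other alternative, none of them called. Psmc3ip is in the count for the untimed arrays, and in that without untreated replicate 3, although its difference there was only rounding. Psmb8 minus Psmb5, Psmb9 minus Psmb6 and Psmb10 minus Psmb7 kept a positive difference between the groups under each alternative run. The deviations of same-numbered arrays from their group means correlated over genes at 0.46, -0.30 and 0.31 for replicates 2, 3 and 4. Arrays of different numbers ran from -0.48 (IL2 replicate 2 with untreated replicate 4) to 0.45 (IL2 replicate 1 with untreated replicate 3). These values do not settle whether the replicate numbers pair the arrays. The group sizes, 4 and 3, limit what the exact test on partner subunits can reach.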
